A study of Danio rerio with 6 samples.

Results

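Meis and Pbx proteins are homeobox transcription factors that bind DNA together, and 8 of their zebrafish genes were followed here: meis1b, meis2a, meis2b, meis3, pbx1a, pbx2, pbx3b and pbx4. They were chosen by name from a table of counts for 27456 genes. Of the 8, 6 had a row and are described, 3 of them Meis and 3 Pbx genes. The name table has an identifier for pbx1a and for a MEIS2 gene that matched no line among the counts, so pbx1a and meis2a were not analysed here. The name table lists meis1b as MEIS1 (ENSDARG00000012078) and pbx3b as PBX3 (ENSDARG00000013615), beside separate rows for meis1a and pbx3a. The other rows were meis2b (ENSDARG00000077840), meis3 (ENSDARG00000002795), pbx2 (ENSDARG00000019717) and pbx4 (ENSDARG00000052150).

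The 6 libraries hold RNA of cells that were sorted by fluorescence from whole zebrafish embryos at 24 hours post fertilization (hpf). Every embryo carried tg(myl7::gfp), a reporter whose cardiac promoter makes heart muscle cells fluoresce, and the submitters call the sorted cells cardiomyocytes. The 3 wildtype libraries are compared with 3 libraries from Gata4 morphants, which received 2 nl of a 0.7 mM morpholino (a synthetic antisense oligomer) before the 4-cell stage. About 200 embryos were pooled for each batch, and the labels do not say whether wildtype embryos received a control oligomer or whether replicates came from separate clutches. The p-values therefore measure the spread between these libraries, which may be technical.

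The oligomer given to the morphants is shown here, and its letters come from the labels, 5′ to 3′.
Gata4 morpholino: tccacaggtgagcgattattgcttc

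Meis and Pbx belong to the TALE class of homeobox proteins, whose DNA-binding homeodomain carries a short extra loop. Pbx proteins bind DNA with Meis and with Hox proteins, and binding to Meis helps to hold Pbx in the nucleus. In zebrafish, pbx4 (the lazarus gene) is needed for hindbrain patterning, and Pbx proteins also act with Myod on fast muscle genes and take part in heart development. Their RNA is not particular to the heart, since neural tube, somites and lateral plate mesoderm express these genes too. Gata4, the target of the oligomer, is a zinc finger factor of heart development.

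Libraries held 12574486 counts (morphant replicate 1) to 37906530 counts (morphant replicate 2), and the members had 25 to 4428 counts in a library. An mRNA-Seq kit was used for 2 wildtype libraries (replicates 1 and 2) and for morphant replicate 1, and a TruSeq kit for the other 3. Replicates are numbered as the libraries were deposited, and values listed by group run from replicate 1 to 3. The identifier of gata4 in the name table had no line among the counts, so the targeted RNA was not analysed here. Cardiomyocyte markers with a row (8, such as MYL7 and cmlc1) were detected in every group and summed to 3080 to 7910 CPM (counts divided by the scaled library size and put on a common scale) in wildtype and 1770 to 2720 CPM in morphants. The 11 leukocyte markers summed to 4570 to 7880 CPM in wildtype, above the cardiomyocyte sum in wildtype replicates 2 and 3, so RNA of cells other than cardiomyocytes was present. In such mixed RNA, fewer cells of a type and less RNA per cell cannot be told apart. The mean chi-square per gene between libraries of a group was 56.4 to 403, far from the agreement of a library deposited again.

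The 3 Meis genes had their highest values in morphant replicates 1 and 3, and morphant replicate 2 lay with the wildtype libraries. For meis1b, a Meis gene of the early embryo, the wildtype libraries had 34.4, 27.1 and 29.7 CPM, and the morphant libraries 137, 25.4 and 83.3 CPM. Morphant replicates 1 and 3 were thus above every wildtype library and morphant replicate 2 was below every one, so the groups overlap. Wildtype averaged 30.4 ± 3.69 CPM and morphants 81.9 ± 55.8 CPM (SD, n = 3 each), and the spread within morphants exceeded the difference between the means. edgeR, fitted with a kit term, put the difference at 1.51 on the log2 scale, morphant minus wildtype (SE 0.53, 95% interval 0.27 to 2.76, adjusted p = 0.393). Its p was the 951st smallest of the 18033 genes tested.

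For meis2b, which marks part of the developing atrium in zebrafish, the wildtype libraries had 25.8, 15.7 and 22.1 CPM and the morphant libraries 60.9, 24.0 and 48.5 CPM. The value of morphant replicate 2 was within the wildtype range, and those of the other 2 were above it. The group means were 21.2 ± 5.09 and 44.5 ± 18.8 CPM (SD, n = 3 each). edgeR gave a log2 fold change of 1.13, with SE 0.43 and an adjusted p of 0.393. meis3, which acts in hindbrain patterning in zebrafish, stood at 17.9, 15.8 and 21.1 CPM in the wildtype libraries and at 59.3, 17.1 and 38.8 CPM in the morphant libraries. The same pair of morphant libraries stood above wildtype, with morphant replicate 2 inside its range. The group means were 18.3 ± 2.7 and 38.4 ± 21.1 CPM (SD, n = 3 each). The difference was 1.11 on the log2 scale, with SE 0.47 and an edgeR adjusted p of 0.393.

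The Pbx genes did not share a single pattern. pbx4, the Pbx gene with the most RNA in these libraries, stood at 109, 89.7 and 123 CPM in the wildtype libraries and at 184, 116 and 231 CPM in the morphant libraries. As with meis2b and meis3, morphant replicates 1 and 3 stood above wildtype and morphant replicate 2 was inside its range, but here replicate 3 was the higher of the pair. The means were 107 ± 16.7 and 177 ± 57.8 CPM (SD, n = 3 each). The difference was 0.69 on the log2 scale (SE 0.37, 95% interval -0.18 to 1.56, edgeR adjusted p = 0.404).

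For pbx3b, a Pbx paralog with few reads, the wildtype libraries had 2.43, 2.80 and 1.60 CPM and the morphant libraries 4.1, 3.02 and 5.84 CPM. These rest on 37, 53 and 25 counts in wildtype and 66, 105 and 112 counts in morphants. This was the member whose groups did not overlap, with a narrow gap between wildtype replicate 2 and morphant replicate 2. The means were 2.28 ± 0.613 and 4.32 ± 1.42 CPM (SD, n = 3 each), 1.05 apart on the log2 scale in edgeR (SE 0.54, adjusted p = 0.398). pbx2, a broadly expressed Pbx gene, stood at 84.5, 88.7 and 68.9 CPM in the wildtype libraries and at 91.6, 71.7 and 71.7 CPM in the morphant libraries. The groups overlap, and within each group the mRNA-Seq libraries were above the TruSeq libraries. The means were 80.7 ± 10.4 and 78.3 ± 11.5 CPM (SD, n = 3 each). edgeR put the difference at 0.07 on the log2 scale (SE 0.28, adjusted p = 0.908), with a 95% interval of -0.59 to 0.73, which leaves room for a change of either sign. That value was -0.04 without the kit term and 0.46 with scaling by totals alone, under which the median of all genes was also 0.46.

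**Figure D1:**
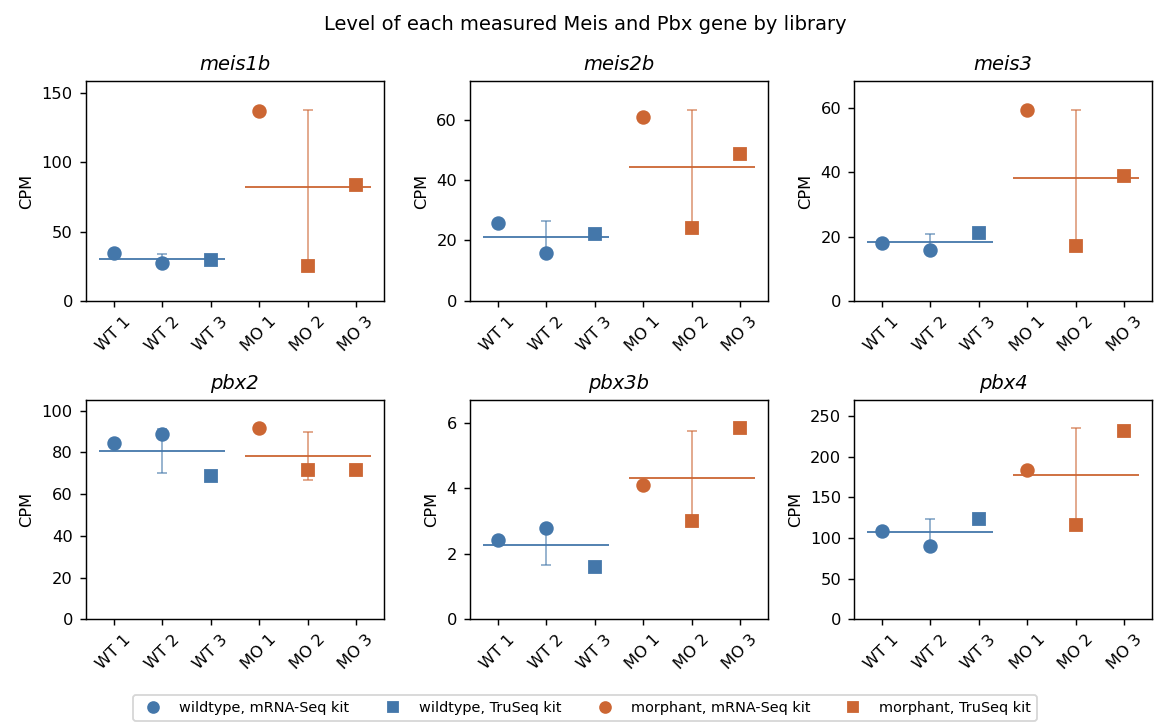
Each panel plots 1 gene's level in CPM (y axis from 0, a scale of its own per panel) in wildtype (WT) and morphant (MO) replicates 1 to 3, with lines for group means, bars for SD (n = 3) and marker shapes for the kit. MO 1 and MO 3 stand above the 3 WT libraries for meis1b, meis2b, meis3, pbx3b and pbx4, while pbx2 ranges from 68.9 to 91.6 CPM with the groups overlapping.

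Across the 6 members, edgeR called 0 at an adjusted p under 0.05, against 0% of all 18033 genes tested, and the smallest adjusted p of any gene was 0.393. Unadjusted, 2 members (meis1b and meis2b) had p under 0.05 with a higher morphant value, where 7.62% of all genes did so, and 0 had a lower one, against 4.92%. DESeq2 called 0 of the 6, with adjusted p of 0.142 for meis1b and 0.203 for meis2b, and 0.682% of all genes passed there with a higher value. limma-voom also called 0. The groups did not overlap for 1 of the 6, pbx3b, with every morphant library above wildtype, and 7.76% of all genes had that order. The median log2 fold change of the members was 1.08, beside 0.07 for all genes tested, and 6 of 6 were positive.

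These values turned on single libraries. Without morphant replicate 2, edgeR called 4 of the 6 members higher, with 8.19% of 19034 genes called higher in that fit. Log2 fold changes there were 1.84 (SE 0.27, adjusted p = 0.0116) for meis1b, 1.34 (adjusted p = 0.0309) for meis2b, 1.39 (adjusted p = 0.0280) for meis3 and 0.86 (adjusted p = 0.0462) for pbx4. pbx3b (1.13, adjusted p = 0.152) and pbx2 (0.03, adjusted p = 0.930) did not pass in that edgeR fit. The library dropped is the one whose Meis values lay with wildtype. Without morphant replicate 1, the log2 fold changes were 0.80 for meis1b, 0.65 for meis2b, 0.33 for meis3 and 0.43 for pbx4, but 1.39 for pbx3b. The 2 members with an unadjusted p under 0.05 became 0 when any of wildtype replicates 1 and 2 or morphant replicates 1 and 3 was left out, 3 without wildtype replicate 3 and 4 without morphant replicate 2. Over all genes tested, the number higher at that p moved too, from 1374 with all libraries. It was 701, 405 and 1335 without wildtype replicates 1, 2 and 3, and 274, 3521 and 556 without morphant replicates 1, 2 and 3.

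Within a kit the comparison rests on 3 libraries, with a lone library in a group that is assumed to vary like the others, and so says more of those libraries than of the conditions. Within the mRNA-Seq libraries, where morphant replicate 1 stands against wildtype replicates 1 and 2, log2 fold changes were 2.09 for meis1b, 1.75 for meis3, 1.49 for meis2b, 0.82 for pbx4, 0.58 for pbx3b and 0.01 for pbx2. In that edgeR fit meis1b, meis3 and meis2b passed (adjusted p = 0.000461, 0.00448 and 0.0153), 3 members higher where 9.65% of the 19818 genes tested there were called higher. Within the TruSeq libraries, morphant replicates 2 and 3 stand against wildtype replicate 3. Log2 fold changes there were 0.76 for meis1b, 0.62 for meis2b, 0.30 for meis3, 0.40 for pbx4, 1.37 for pbx3b and -0.02 for pbx2. The sign was thus positive in both kits for 5 members, with larger values of the Meis genes and pbx4 in the mRNA-Seq libraries and a larger value of pbx3b in the TruSeq libraries. The difference between kits was not tested. Which members passed within a kit is no measure of it, because each fit has a lone library in a group.

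**Figure D2:**
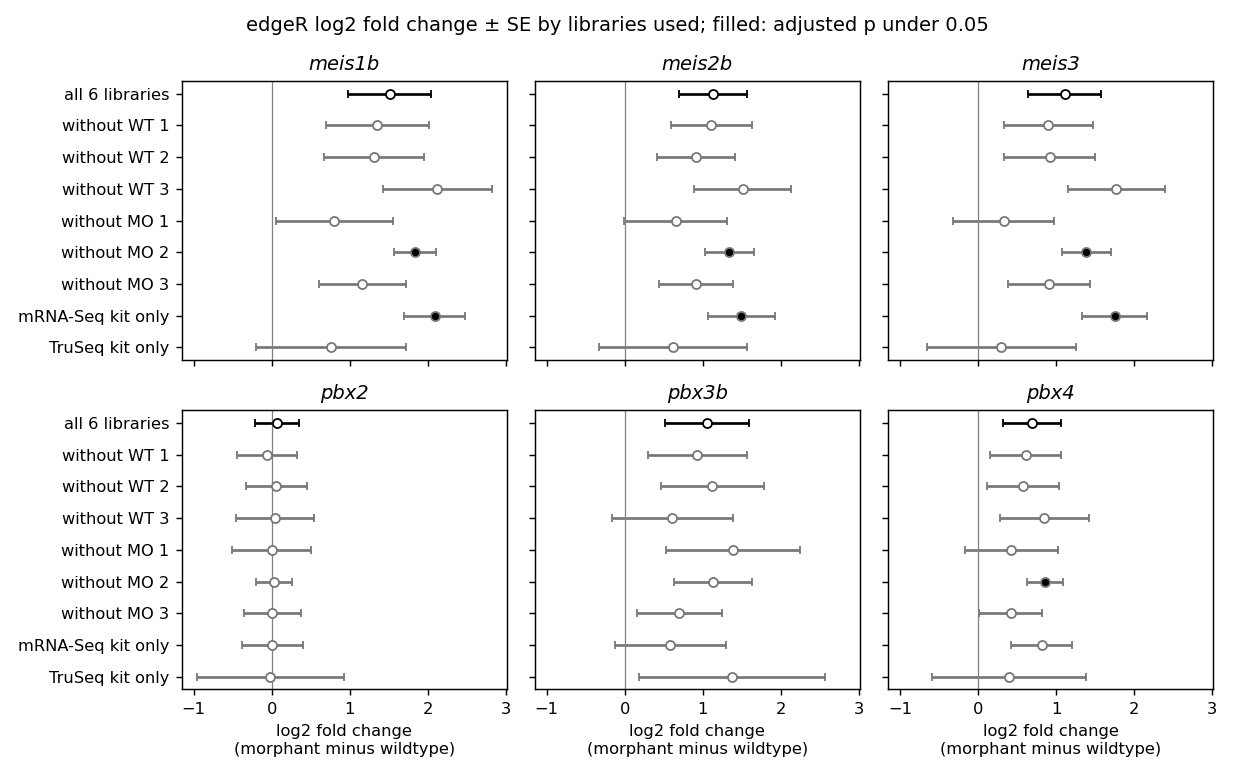
Points are edgeR log2 fold changes (x axis, morphant minus wildtype) with SE bars for each member, from all 6 libraries, from fits without 1 library and from each kit alone, and filled points have an adjusted p under 0.05. Filled points appear without MO 2 (meis1b, meis2b, meis3, pbx4) and in the mRNA-Seq kit alone (meis1b, meis2b, meis3), and the pbx2 points lie between -0.06 and 0.07.

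Levels of different genes were compared per length, using the RPKM (a read count scaled by gene length and library) deposited by the authors. Set against library totals, the scale of these values ran from 0.819 to 1.27 between libraries, with wildtype replicate 1 as 1, and against TMM-scaled totals from 1 to 1.05. They thus follow a scaling near that of the CPM used here and not the library totals alone. In wildtype, pbx4 had the most RNA per length at 30.2 ± 4.75 RPKM, followed by pbx2 at 11.9 ± 1.49 RPKM (SD, n = 3 each). Next came meis3 at 6.87 ± 1.06 RPKM and meis1b at 6.0 ± 0.574 RPKM, neighbours whose order differed between libraries and whose levels lay within their spread. meis2b followed at 3.04 ± 0.667 RPKM and pbx3b was last at 0.210 ± 0.0545 RPKM. Morphant replicate 2 had the order of wildtype replicates 2 and 3. In morphant replicates 1 and 3 meis1b and meis3 stood above pbx2, with 27.6 and 16.5 RPKM of meis1b, 22.6 and 14.6 RPKM of meis3, and 13.8 and 10.6 RPKM of pbx2.

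Ratios within a library do not depend on how libraries are scaled to each other. The ratio of summed Meis to summed Pbx RPKM was 0.396, 0.350 and 0.378 in wildtype replicates 1 to 3, and 0.880, 0.342 and 0.498 in morphant replicates 1 to 3. Measured Meis transcripts were thus a larger part of the family's RNA in morphant replicates 1 and 3 than in any wildtype library, and a slightly smaller part in morphant replicate 2. The ratio of meis1b to pbx2 was 0.545, 0.409 and 0.577 in wildtype replicates 1 to 3 and 2.00, 0.474 and 1.55 in morphant replicates 1 to 3, so meis1b exceeded pbx2 in the same pair of libraries. pbx4 made up 65.4 to 77.0% of the Pbx sum in wildtype and 75.0 to 85.4% in morphants. The sums leave out meis2a and pbx1a, and the differences in these ratios were not tested.

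**Figure D3:**
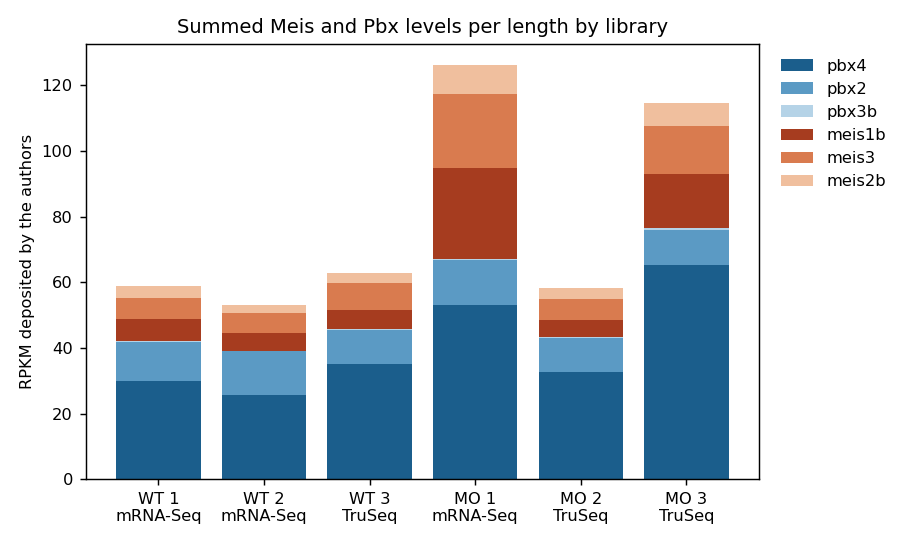
Bars stack the authors' RPKM (y axis from 0) of the 6 measured genes in wildtype (WT) and morphant (MO) replicates 1 to 3, with the kit under each bar. The stack reaches 126 RPKM in MO 1 and 115 RPKM in MO 3, against 58.3 RPKM in MO 2 and 53.1 to 63 RPKM in wildtype. Put on library totals alone, the stacks would be 154 and 127 in MO 1 and MO 3, against 52.2 in MO 2 and 45.6 to 58.9 in wildtype.

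Summed markers of several other cell types also set morphant replicates 1 and 3 apart. Relative to the wildtype mean, the CPM of meis1b stood at log2 values of 2.17, -0.26 and 1.45 in morphant replicates 1 to 3. The summed level of 16 neural markers stood at 1.49, 0.39 and 1.11 there, that of 12 skeletal muscle markers at 0.67, -0.74 and 1.2, and that of 11 leukocyte markers at -2.97, 0.02 and -1.60. The Meis genes and the neural sum were highest in morphant replicate 1, while pbx4, pbx3b and the skeletal muscle sum were highest in morphant replicate 3.

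In CPM, neural markers summed to 365 to 519 in wildtype and to 1250, 582 and 959 in morphant replicates 1 to 3. Of these, 16 of 16 were positive, 7 of them at an unadjusted edgeR p under 0.05. Over all genes tested, 7.62% were higher and 4.92% lower at that p, for comparison with this and the next 3 lists. Skeletal muscle markers summed to 1500 to 2050 in wildtype and to 2850, 1070 and 4100 in morphant replicates 1 to 3. Of 11 tested, 9 were positive and 5 were higher at an unadjusted p under 0.05. Much of the rise in replicates 1 and 3 lay in atp2a1, singled out after its values were seen. It stood at 187, 172 and 356 CPM in wildtype and at 1200, 151 and 1840 CPM in morphants. A sum without atp2a1 was not computed. Leukocyte markers summed to 857, 6800 and 2210 CPM in morphant replicates 1 to 3, with 10 of 11 negative and 3 at an unadjusted p under 0.05. Of 8 cardiomyocyte markers 7 were negative, 5 at an unadjusted p under 0.05, and each morphant sum was below the lowest wildtype sum. Without morphant replicate 2, edgeR called 8 of 16 neural and 8 of 12 skeletal muscle markers higher, and 7 of 11 leukocyte and 4 of 8 cardiomyocyte markers lower, in a fit that called 8.19% of all genes higher and 11.5% lower. In each of these 4 lists 0 of the genes with a row were at 0 counts in every library, and edgeR with all libraries called 0 after adjustment over all genes.

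Epidermal markers (8) summed to 4650 to 5370 CPM in wildtype and to 13400, 4060 and 7550 CPM in morphants, and endoderm and liver markers (7) to 19.2 to 25.8 CPM in wildtype and to 384, 17.7 and 47.6 CPM in morphants. The high sums of morphant replicate 1 rested on a few genes. Without FABP2 and FGB, left out after their values were seen, the endoderm and liver sums were 47.3, 16.3 and 45.7 CPM in morphants, and without krt4 and krt5 the epidermal sums were 2260, 3310 and 5170 CPM, the first of these below the wildtype range of 3510 to 3610 CPM. Neural crest and pigment markers summed to 127 to 146 CPM in wildtype and to 208, 106 and 241 CPM in morphants, and lateral plate and epicardial markers to 57.5 to 98.6 CPM and to 108, 78.3 and 149 CPM. Erythroid sums (325 to 1150 CPM in wildtype, 614, 1130 and 450 CPM in morphants) and endothelial sums (151 to 291 CPM in wildtype, 175, 129 and 103 CPM in morphants) did not set morphant replicates 1 and 3 apart. The part of these cell types in the Meis and Pbx values was not tested.

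**Figure D4:**
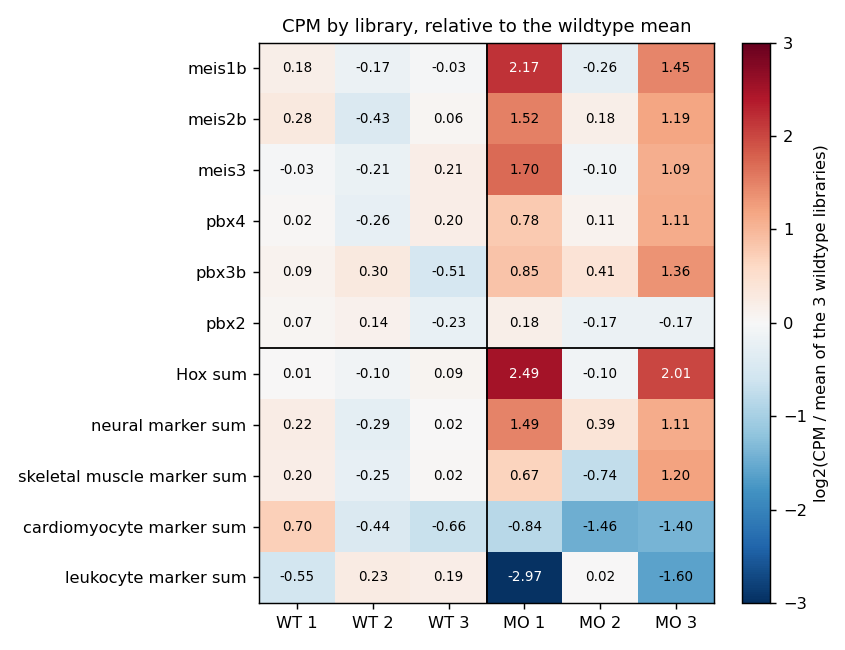
Cells give the log2 ratio of CPM to the mean of the 3 wildtype libraries (colour and number) for 6 members above the line and for summed lists below it, in wildtype (WT) and morphant (MO) replicates 1 to 3. MO 1 and MO 3 share high values for the Meis genes, pbx4, pbx3b, the Hox sum and the neural sum and low values for the leukocyte sum. MO 2 lies closer to wildtype in these rows, but above each WT library for pbx3b (0.41) and the neural sum (0.39) and below each for meis1b (-0.26). In the other rows MO 2 is lowest, at -1.46 for the cardiomyocyte sum and -0.74 for the skeletal muscle sum, while pbx2 overlaps between groups.

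Hox genes, whose proteins bind DNA beside Pbx and Meis, were likewise high in morphant replicates 1 and 3. The 28 Hox rows summed to 93.8, 87.1 and 99.2 CPM in the wildtype libraries and to 526, 87.0 and 377 CPM in the morphant libraries. The median log2 fold change was 1.94 and 28 of 28 were positive. Of these, 21 had an unadjusted edgeR p under 0.05, where 7.62% of all genes tested had it with a higher value. None passed adjustment in edgeR over all genes (smallest adjusted p = 0.393). DESeq2 called 0.682% of all genes higher, and among the Hox rows 4, which are also the 4 with the smallest edgeR p. These were hoxc3a (edgeR log2 fold change 2.55, SE 0.65, DESeq2 adjusted p = 0.0277) and HOXC10 (2.39, DESeq2 adjusted p = 0.0384). HOXC9 (2.49, DESeq2 adjusted p = 0.0324) and HOXC5 (3.02, DESeq2 adjusted p = 0.0419) were the others, with log2 fold changes again from edgeR. The count of 21 was 2 without morphant replicate 1, 5 without wildtype replicate 1, 6 without wildtype replicate 2, 7 without morphant replicate 3 and 11 in limma-voom. Over all 18033 to 19227 genes tested, those higher at that p numbered 274, 701, 405, 556 and 962 in these settings, in that order. The number of positive values was 27 without morphant replicate 1 and within the TruSeq libraries. Without morphant replicate 2 the count of 21 was 28, and edgeR then called 25 after adjustment. Over all 19034 genes of that fit, 3521 were higher at an unadjusted p under 0.05 and 8.19% were called higher.

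Relatives in the TALE class leaned the same way with smaller counts. Of 14 rows, 10 passed the filter on low counts, with a median log2 fold change of 1.09. Of these, 10 were positive in edgeR and 9 in DESeq2, with its size factors and in limma-voom. The Iroquois genes IRX1 (2.31, SE 0.73) and irx5b (1.72, SE 0.70) had an unadjusted edgeR p under 0.05, and IRX3 (1.98, SE 0.87) and IRX5 (1.12, SE 0.52) came next, each with an edgeR adjusted p of 0.393 or 0.394. IRX1 had 1.97, 3.12 and 2.95 CPM in wildtype against 22.1, 2.68 and 14.0 CPM in morphants, high in the same pair of libraries as meis1b. The paralog meis1a, singled out after its values were seen, had 16.3, 9.98 and 17.1 CPM in wildtype and 46.0, 7.91 and 34.1 CPM in morphants, a difference of 1.05 on the log2 scale (SE 0.63, edgeR adjusted p = 0.425). Its morphant replicate 2 was below every wildtype library, as for meis1b. The count at an unadjusted edgeR p under 0.05 was 2 of 10 tested with all libraries, where 7.62% of all genes were higher at that p. The number that passed the filter changed with the libraries used. That count was 0 of 13 without wildtype replicate 1, 1 of 12 without wildtype replicate 2 and 3 of 13 without wildtype replicate 3. It was 0 of 11 without morphant replicate 1, 8 of 13 without morphant replicate 2 and 0 of 10 without morphant replicate 3. Over all genes tested, those higher at that p numbered 701, 405 and 1335 without wildtype replicates 1, 2 and 3. They numbered 274, 3521 and 556 without morphant replicates 1, 2 and 3.

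Interactors outside the TALE class had values on both sides of 0, with a median of 0.13 over 9 genes and 0 at an unadjusted edgeR p under 0.05. At that p, 7.62% of all genes were higher and 4.92% lower. The count became 1 lower in DESeq2, with its size factors, in limma-voom and without wildtype replicate 3. Of all genes, 1907, 1025, 1288 and 1656 were lower there. It became 1 higher with totals alone, without the kit term and with no filter on low counts. Of all genes, 2972, 1214 and 2317 were higher there. Leaving out morphant replicate 2 gave 2 higher and 1 lower call after adjustment in edgeR, where 8.19% of all genes were called higher and 11.5% lower. The genes of Pbx-interacting proteins, pbxip1a (1.14, SE 0.52) and pbxip1b (1.00, SE 0.54), had edgeR adjusted p of 0.394 and 0.407. pbxip1a stood at 31.3, 26.1 and 33.1 CPM in wildtype and at 70.9, 27.2 and 103 CPM in morphants, highest in replicate 3 as for pbx4. CRTC1, a coactivator gene, had -0.65 (SE 0.72), and HDAC1, a histone deacetylase that occurs with these factors, had 0.05 (SE 0.29).

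Heart transcription factors showed no common direction, with a median of 0.00 over 10 rows, 5 of them positive, beside a median of 0.07 for all genes. With scaling by totals alone 8 were positive, at a list median of 0.40 beside 0.46 for all genes. The listed genes gata4, gata6 and nkx2.5 had no row, while TBX2 and MEF2C have 2 rows each. TBX2 (ENSDARG00000006120), a repressor active in the atrioventricular canal, had 1.39 (SE 0.51). ISL1, a factor of the second heart field, had 1.52 (SE 0.58), and TBX2 (ENSDARG00000018025) had 0.99 (SE 0.47). The row MEF2C (ENSDARG00000009418), a muscle and heart factor, had -1.06 (SE 0.60), with 76.5, 66.0 and 88.1 CPM in wildtype against 21.1, 105 and 31.8 CPM in morphants. It was thus low in the libraries where meis1b was high, while the other MEF2C row (ENSDARG00000029764) had 1.05. HAND2, a factor of the heart and lateral plate, had 0.04 (SE 0.43). The edgeR adjusted p was 0.393 for the first TBX2 row and ISL1, and above that for the others named here. The 2 rows at an unadjusted edgeR p under 0.05 (the first TBX2 row and ISL1) were both higher, where 7.62% of all genes were. That count was 0 in limma-voom and without any of wildtype replicates 1 and 2 or morphant replicates 1 and 3. In these settings the number of all genes higher at that p also fell, from 1374 to 962, 701, 405, 274 and 556, in that order. Without morphant replicate 2, 4 of the heart factor rows were higher and 1 lower, where 3521 of 19034 genes were higher and 3549 lower at that p.

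Hindbrain genes that depend on Meis, Pbx and Hox in zebrafish had a median of 1.14 over 9 rows. At an unadjusted edgeR p under 0.05, 3 were higher and 1 lower, where 7.62% of all genes were higher and 4.92% lower. The list names fgf8a, a gene for a signal of the midbrain-hindbrain border. Without its last letter it matched 2 rows, both called FGF8, and their symbols do not tell which is fgf8a. The row ENSDARG00000039615, 1 of the 3 counted as higher, had 2.86 (SE 0.83, edgeR adjusted p = 0.393), from a low wildtype mean of 0.38 CPM. The other row, ENSDARG00000003399, averaged 4.35 CPM in wildtype and had 1.14 (SE 0.62, edgeR adjusted p = 0.409). The count of 3 was 6 without morphant replicate 2, where 3521 of 19034 genes were higher at that p. The 1 lower was 0 without morphant replicate 1, wildtype replicate 1 or wildtype replicate 2, where 190, 486 and 409 genes were lower.

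A list of muscle genes on which Pbx acts with Myod in zebrafish had a median of 2.11 over 7 rows. It also holds MYOD1 itself and PRDM1, the latter with a log2 fold change of -1.18 (SE 0.63). Of the 7 rows 6 were positive, and 4 were higher at an unadjusted edgeR p under 0.05, where 7.62% of all genes were. These 4 were the myogenic factor genes MYOD1 (2.69, SE 0.91) and MYOG (2.58, SE 0.87), the fast myosin gene myhz2 (2.19, SE 0.82) and the calcium pump gene atp2a1 (2.11, SE 0.83), each with an edgeR adjusted p of 0.393. MYOD1 had 4.38 to 6.17 CPM in wildtype and 49.6, 3.19 and 47.6 CPM in morphants. Unlike pbx4, which was inside the wildtype range in morphant replicate 2, MYOD1 was below it there. The count of 4 was 0 in limma-voom and without any of wildtype replicates 1 and 2 or morphant replicates 1 and 3. Over all genes tested, those higher at that p numbered 962 in limma-voom. They numbered 701 and 405 without wildtype replicates 1 and 2, and 274 and 556 without morphant replicates 1 and 3. The skeletal muscle marker list holds MYOD1, MYOG, atp2a1 and the TNNT3 rows of this list too, so these lists are largely the same genes.

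**Figure D5:**
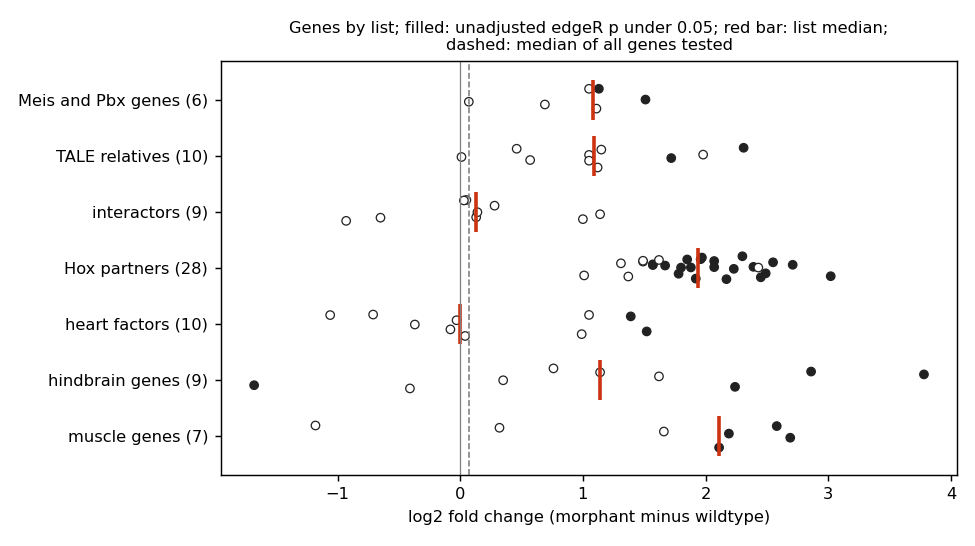
Points are edgeR log2 fold changes (x axis, morphant minus wildtype) of the genes tested in each list (number tested in brackets), filled at an unadjusted p under 0.05, with a red bar at the list median and a dashed line at the median of all genes, 0.07. The Hox partners have a median of 1.94 with 28 of 28 above 0, the muscle genes a median of 2.11 with 6 of 7 above 0, and the heart factors spread on both sides of 0.

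Genes with the library profile closest to each member were found by the root mean square difference of log2(CPM + 1) over the 6 libraries, after subtracting each gene's mean, among 10026 other genes with a symbol and at least 5 CPM on average. For meis1b these were FLRT3 (0.07), a transmembrane adhesion protein gene, DLX3 (0.09), a homeobox gene of ectoderm, and GAS1 (0.10), a Hedgehog co-receptor gene. FLRT3 stood at 42.9, 33.7 and 36.5 CPM in wildtype and 154, 33.1 and 108 CPM in morphants. For meis2b they included ADAM22 (0.11) and BCL9 (0.11), a Wnt coactivator gene. For meis3 they were NSD2 (0.06), a histone methyltransferase gene, CXXC5 (0.09) and atn1 (0.09).

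The Pbx genes had other neighbours. For pbx4 these were WDR75 (0.07), a gene of ribosome production, ZNRF3 (0.08), which removes Wnt receptors, and ralaa (0.08), and for pbx3b INTU (0.11), NGRN (0.12) and PTBP2 (0.12), a splicing regulator of neurons. For pbx2 they were SEPHS2 (0.06), SLC16A8 (0.06) and troap (0.07), beside an SD of 0.18 for the profile of pbx2 itself and 0.99 for that of meis1b. Among the 15 pairs of members the closest profiles were those of meis2b and meis3 (0.21) and of meis1b and meis3 (0.26), and the furthest apart were meis1b and pbx2 (0.87). These are descriptions over 6 libraries that differ in kit and in their marker sums.

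In the authors' deposited table, 0 of the 6 members had an adjusted p under 0.05, where 703 genes did. Its fold, wildtype over morphant, was 0.396 for meis1b (adjusted p = 0.0633 in the authors' deposited table) and 0.504 for meis2b, 0.507 for meis3, 0.552 for pbx3b and 0.637 for pbx4, all on the side of higher morphant values. For pbx2 the authors' deposited table gives 1.08, on the other side, with an adjusted p of 0.994.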

How the data were processed

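The deposited table gives, for each Ensembl gene and library, the raw counts and the RPKM deposited by the authors, and the authors' own fold (a ratio, wildtype over morphant) and adjusted p-values, per the file headers, which name no tool. The authors' RPKM values were proportional to the count plus 1 within a gene in 100% of values (tolerance 1%). CASAVA 1.7.0, BWA and DESeq, and Zv9 as the genome build, appear in the submitters' processing notes without a stated role. How reads were counted, with which gene lengths and whether by strand, is not given in the sources used here. Values of close paralogs such as meis1a and meis1b, or of overlapping genes, are therefore uncertain where reads match both. Symbols came from a name table that matched 19189 of 27456 identifiers (69.9%). Names absent there were tried without a final a or b.

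Counts were tested with edgeR 4.0.16 (R 4.3.3): TMM scaling, filterByExpr, terms for kit and group, the two-sided quasi-likelihood F test with 3 residual degrees of freedom, and Benjamini-Hochberg adjustment over 18033 genes at 0.05. All 6 members passed the filter. The 95% intervals use 7.01 total degrees of freedom, which include those edgeR borrows across genes. The edgeR SE is the absolute log2 fold change divided by the square root of F. CPM use TMM-scaled totals (factors 0.822 to 1.29), and log2 fold changes a prior count of 0.125. Alternatives were other scalings, DESeq2 1.42.0, limma-voom (limma 3.58.1), no kit term, no filter, each library left out and each kit alone. The code was tested on simulated counts.

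The members and gene lists were chosen with earlier results of these data known. The text names each member, the 4 genes with the smallest p in each list and the 3 closest profiles per member. Some genes that this rule selects are not reported here. The genes meis1a, HDAC1, HAND2 and PRDM1, the other FGF8 row, the MITF and TNNT3 rows, and the markers named as examples, were named after their values were seen. Summed RPKM on totals alone and marker sums without single genes were added after the data were seen. Lists are described by counts and medians, without a set test.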

Additional observations from a re-analysis of the deposited data

How the results depend on the processing

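Over 14 alternatives, 74 of 84 member values kept their sign and their side of the threshold, 7 passed it and 3 changed sign. The 3 were pbx2, at -0.04 without the kit term, -0.02 within the TruSeq libraries and -0.06 without wildtype replicate 1, and the cause was not tested. Leaving out 1 library at a time gave log2 fold changes of 0.80 to 2.12 for meis1b, 0.65 to 1.51 for meis2b, 0.33 to 1.77 for meis3, 0.42 to 0.86 for pbx4, 0.61 to 1.39 for pbx3b and -0.06 to 0.06 for pbx2, and members passed in 1 of these fits, that without morphant replicate 2. Within the mRNA-Seq libraries meis1b (2.09), meis2b (1.49) and meis3 (1.75) passed. Over all genes edgeR called 0, with 2261 at an unadjusted p under 0.05. The count was 293 in DESeq2, 44 in edgeR with no filter on low counts, 0 to 3745 with 1 library left out, 4352 within the mRNA-Seq libraries and 1 within the TruSeq libraries. With totals alone as the scaling, 5 members were higher at an unadjusted edgeR p under 0.05, as were 2972 of the 18033 genes tested. Log2 fold changes less the median of all genes were then 1.48 for meis1b and 0.64 for pbx4, against 1.44 and 0.62 with TMM. No paired analysis was possible because the labels give no replicate numbers. Depth limits pbx3b most, with as few as 25 counts in a library.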
